A study of Mus musculus and synthetic construct with 30 samples.

Results

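The oligos described here tile the *Fendrr* and *Foxf1* locus on mouse chromosome 8 in a massively parallel reporter assay (MPRA). They were chosen by the gene name in the table of oligos, without scrambled copies, from the part of that table that could be read. This gave 237 of the 23420 barcoded oligos that were counted. Of these, 187 barcodes belonged to 38 tiles of *Fendrr* and 50 barcodes to 10 tiles of *Foxf1*. Each tile was 90 bases of genomic sequence, and nearly all tiles were linked to 5 barcodes of 10 letters each. The pool was transfected transiently into C2C12 cells, a line of mouse myoblasts, on a vector with a minimal promoter and a GFP gene. Barcodes were counted in 5 libraries of GFP RNA from these cells, for which the labels give no genotype or further treatment, and in 5 libraries of the vector DNA that was transfected. The labels give the libraries a letter, A or B, and a number. The RNA came from 2 passages of cells and the DNA was prepared on 2 days, and which letter stands for which was not given. Because the reporter sits on a plasmid, a ratio describes a 90-base piece outside its chromosome.

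*Foxf1* encodes a forkhead transcription factor that is required for the lateral plate mesoderm and for the lung and gut mesenchyme that derive from it. *Fendrr* is a long intergenic noncoding RNA that is transcribed away from *Foxf1*, on the opposite strand, from a start close to that of the coding gene. Such divergent pairs share the stretch of DNA between their starts, which acts as a promoter in both directions. In an MPRA of this kind, a tile that enhances transcription raises the RNA count of its barcodes relative to their DNA count.

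In GENCODE vM21, on the mm10 assembly, *Fendrr* runs from 121054882 to 121083110 on the minus strand and *Foxf1* from 121084386 to 121088144 on the plus strand. Their outermost starts lay 1276 bases apart. The tiles that could be read spanned 121055163 to 121088004 and covered 4109 of these 32842 bases (12.5%). All 48 tiles equalled the mm10 sequence of the strand of their gene. Of the *Fendrr* tiles, 32 lay in introns, 4 within exons, 1 across an exon end and 1 upstream of the gene. Of the *Foxf1* tiles, 2 lay upstream, 1 in coding sequence, 2 in the intron and 5 in the 3′ untranslated region (UTR). The tiles of the same locus outside the readable part were not analysed here.

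The first sequences shown are the pair of tiles that cover the same stretch between the starts of the genes. They share 88 bases and were cloned in opposite orientations, so that each reads in the direction of its own gene. Capitals mark the letters of the SP1 motif GGGCGG or its reverse complement. The *Fendrr* tile is chr8:121083678-121083767 on the minus strand and the *Foxf1* tile is chr8:121083680-121083769 on the plus strand.
Fendrr upstream tile: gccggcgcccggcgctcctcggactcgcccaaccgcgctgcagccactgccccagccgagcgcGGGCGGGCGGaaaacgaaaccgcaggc
Foxf1 upstream tile: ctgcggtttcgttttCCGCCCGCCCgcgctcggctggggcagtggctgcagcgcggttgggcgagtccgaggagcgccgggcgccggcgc

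Next come the tiles whose barcodes had the highest median log2 ratio of RNA to DNA in each gene, and the *Fendrr* tile with the lowest. The *Foxf1* tile is chr8:121086298-121086387 on the plus strand, in an intron, and its capitals mark the CpG dinucleotides. The *Fendrr* tile with the highest median is chr8:121060010-121060099 on the minus strand, within an exon. The *Fendrr* tile with the lowest median is chr8:121068263-121068352 on the minus strand, in an intron. In both *Fendrr* tiles, capitals mark the bases that are masked as repeats in the reference sequence.
Foxf1 intron tile: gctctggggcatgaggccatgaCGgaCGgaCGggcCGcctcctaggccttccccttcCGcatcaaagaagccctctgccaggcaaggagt
Fendrr exon tile: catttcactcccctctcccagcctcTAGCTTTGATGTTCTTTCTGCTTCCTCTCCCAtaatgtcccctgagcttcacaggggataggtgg
Fendrr lowest tile: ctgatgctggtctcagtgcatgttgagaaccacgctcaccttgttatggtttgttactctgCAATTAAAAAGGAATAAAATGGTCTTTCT

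Hardly any of the DNA between the 2 starts could be measured. The 3 tiles between the starts had 15 barcodes, and 1 of them reached 10 counts in at least 3 DNA libraries. The 5 barcodes of the *Fendrr* upstream tile shown above summed to 3 counts over all 5 DNA libraries and to 4 counts over all 5 RNA libraries. Those of the second *Foxf1* upstream tile, chr8:121083925-121084014, summed to 6 and 4 counts. The *Foxf1* coding tile, chr8:121085150-121085239, summed to 24 and 74 counts and kept none of its barcodes. No ratio can be given for these 3 tiles. Whether they were active could not be measured, since their barcodes were nearly absent from the DNA libraries.

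The tiles that dropped out were rich in G and C. Among all 48 tiles, the 6 with 66% or more G and C kept 4 of 30 barcodes (13.3%), whereas the other 42 kept 170 of 207 (82.1%). The upstream tiles of both genes held 77.8% G and C, and the coding tile of *Foxf1* 74.4%. The number of kept barcodes fell with G and C content across the 48 tiles (Pearson's r = −0.61, Spearman's rho = −0.45, as a description over tiles that share their libraries). The same held for the tiles of the other annotated genomic loci, where 10 of 30 barcodes were kept at 66% or more (33.3%) against 428 of 624 below (68.6%). In all, 143 of the 187 *Fendrr* barcodes (76.5%) and 31 of the 50 *Foxf1* barcodes (62.0%) were kept, beside 69.5% of the whole pool. Below 66% G and C, the shares were 81.4% and 85.7%, so the lower retention of *Foxf1* lay in its 3 tiles around the start. Among the 63 lost barcodes, 17 had no count in any DNA library.

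The 45 tiles that remained had a low activity on the whole, close to that of the pool. Activity is the log2 ratio of RNA to DNA from edgeR's quasi-likelihood test, with each library scaled by the median count of its barcodes with 10 or more counts. A barcode was called active when its adjusted p was below 0.01 (Benjamini-Hochberg over all 16285 kept barcodes) and its log2 ratio above 1, and lower when the ratio was below −1 at the same adjusted p. The *Fendrr* barcodes had a median log2 ratio of 0.15 (quartiles −0.18 and 0.43, n = 143) and the *Foxf1* barcodes of 0.32 (quartiles 0.02 and 0.54, n = 31). All kept barcodes had a median of 0.08, and the 124 kept barcodes of scrambled tiles one of 0.23.

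Active barcodes numbered 5 of 143 in *Fendrr* (3.50%) and 2 of 31 in *Foxf1* (6.45%), where 4.59% of all barcodes tested were active. Lower barcodes numbered 4 of 143 in *Fendrr* (2.80%) and 0 of 31 in *Foxf1*, where 1.86% of all were lower. Scrambled tiles had 7 active barcodes of 124 (5.65%) and 1 lower. The shares in both genes therefore lay near the background.

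The same held when the counts of all kept barcodes of a tile were summed. By this measure 1 of the 8 *Foxf1* tiles and 0 of the 37 *Fendrr* tiles was active, with 4.80% of all 229 annotated tiles active. The count rose to 2 without RNA library A_2 or DNA library B_1, where the *Foxf1* upstream tile at 121083680, with its 1 kept barcode, passed the limit. No tile of either gene was lower, nor was any of the 229 (0.00%). Without the limit on size, 18 *Fendrr* tiles and 4 *Foxf1* tiles were higher in RNA at an adjusted p below 0.01, beside 48.0% of all tiles, and 5 and 0 were lower, beside 13.1%. The levels of RNA libraries all lay above those of the DNA libraries in 16 *Fendrr* and 4 *Foxf1* tiles (44.1% of all tiles), and all below in 4 and 0 (12.2%). The direction of small ratios depended on the scaling. The median of all tiles was 0.17, edgeR's TMM scaling moved it by −0.16, and with TMM 10 *Fendrr* tiles were higher and 10 lower. Ratios of tiles are best read against that median.

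The intron tile of *Foxf1* at 121086298 was the only active tile of the 2 genes. Its 4 kept barcodes had log2 ratios of 0.63 ± 0.09 (SE), 0.97 ± 0.09, 1.15 ± 0.08 and 1.40 ± 0.06, all above 0, and the 2 highest were called active. Relative to the median barcode of each library, the summed level of the tile was 13.14, 12.37, 13.23, 11.03 and 12.14 in the RNA libraries A_1, A_2, B_1, B_2 and B_3. It was 5.51, 5.60, 5.32, 5.48 and 6.00 in the DNA libraries A_1, A_2, A_3, B_1 and B_2. Every RNA library thus lay above every DNA library, and the groups were far apart compared with the spread within them. The log2 ratio of the tile was 1.15 ± 0.05 (SE, adjusted p = 5.17e-13 by edgeR), which ranked 11 of 229 tiles. It stood just over the limit, and with TMM scaling it was 0.99 and no longer called. In the ranking it followed 5 tiles of the cytomegalovirus promoter and 2 of the Ef1a promoter, which are strong promoters used as controls, 1 tile each of *Morc2a* and *Enc1*, and 1 scrambled tile with a log2 ratio of 1.16.

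The intron tile held 65.6% G and C and 5 CpG dinucleotides, and none of the motifs that were searched. Searched on both strands were the E-box CANNTG with its myogenic form CAGCTG, the forkhead motif TGTTTAC and its core TGTTTA, the AP-1 motif TGANTCA, the SP1 motif, a MEF2 motif, the TEAD motif CATTCC, the TATA box TATAAA, the CRE motif TGACGTCA and the GATA motif AGATAA. Some of these overlap by construction, since each myogenic E-box is an E-box and each forkhead motif holds the core. The other intron tile of *Foxf1*, chr8:121085612-121085701, had 57.8% G and C and an E-box, and all 5 of its barcodes were kept. Its barcodes ran from −0.46 to 0.47 with a median of 0.32, and the tile had a log2 ratio of 0.10 ± 0.05 (SE, adjusted p = 0.0987 by edgeR).

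One barcode of the *Foxf1* upstream tile remained, and with it the only measurement between the genes. Its counts were 341, 211, 468, 320 and 269 in the RNA libraries and 64, 191, 97, 337 and 267 in the DNA libraries, in the order of libraries given above. The DNA count differed by over 5 times between libraries, against factors of 383 to 930 that the libraries were scaled by. The log2 ratio was 0.96 ± 0.17 (SE, adjusted p = 2.90e-05 by edgeR), which missed the size for an active call. Fitted as a tile, this barcode had 0.94 ± 0.17 (SE), and between 0.82 and 1.07 with each library left out in turn. Its 4 sister barcodes had at most 16 counts each over the 5 DNA libraries, so the value rests on 1 barcode and cannot be compared with the *Fendrr* orientation of the same bases.

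The 5 tiles in the 3′ UTR of *Foxf1* stayed close to the pool. Their 21 kept barcodes had a median log2 ratio of 0.14 and ran from −0.52 to 0.76, and none was called. The tiles chr8:121087719-121087808 and chr8:121087817-121087906 had log2 ratios of 0.29 ± 0.04 and 0.28 ± 0.06 (SE, adjusted p = 1.23e-06 and 3.94e-04 by edgeR). The remaining tiles of the UTR, at 121087278, 121087474 and 121087915, had 0.11 ± 0.07, 0.08 ± 0.04 and −0.16 ± 0.06, with adjusted p of 0.143, 0.0978 and 0.0167 by edgeR. The median G and C content of these 5 tiles was 28.9%.

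In the *Fendrr* tile with the highest median, the extreme values came from barcodes that were rare in the vector pool. The exon tile at 121060010 had barcodes with log2 ratios of −0.16 ± 0.07, 0.42 ± 0.06, 0.73 ± 0.06, 2.63 ± 0.32 and 2.98 ± 0.27 (SE). The 3 lower values came from barcodes with median DNA counts of 2093, 3116 and 5104, and the 2 highest from barcodes with 22 and 25. The place of this tile as the highest by median rests on these 2 rare barcodes. The middle one of the 3 lower values is 0.42, while the intron tile at 121066025 had a median of 0.62. The barcode at 2.98 had 286, 263, 299, 135 and 220 RNA counts and 12, 25, 12, 68 and 65 DNA counts. The barcode at 2.63 had 128, 151, 203, 75 and 150 RNA counts and 19, 23, 7, 60 and 22 DNA counts. RNA lay above DNA in every library for both. With all 5 barcodes summed the tile had a log2 ratio of 0.53 ± 0.04 (SE, adjusted p = 7.04e-09 by edgeR), under the limit for a call and ranked 35 of 229.

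Low DNA counts went with active calls in the pool as a whole. Barcodes with a median DNA count below 30 were active in 20.8% of cases (105 of 504), and those of 100 or more in 3.65% (529 of 14493). Of the 7 active barcodes of the 2 genes, 4 had a median DNA count below 100, out of 12 such barcodes, and 3 had a higher one, out of 162. The part of low DNA counts in these calls was not tested. With a minimum of 50 counts in 3 DNA libraries, neither of the rare barcodes of the exon tile was tested.

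The other active *Fendrr* barcodes lay 1 to a tile, in introns. At 121076156, the barcode had 1839, 1706, 2630, 1486 and 1701 RNA counts and 548, 833, 416, 1164 and 1154 DNA counts. Its log2 ratio was 1.34 ± 0.08 (SE, adjusted p = 5.65e-15 by edgeR), and the other 3 kept barcodes of the tile had 0.04, 0.46 and 0.67. That tile, with 64.4% G and C, had a summed log2 ratio of 0.56 ± 0.04 (SE), and none of its barcodes was below 0. At 121080994, the barcode with 1.45 ± 0.24 (SE) had a median DNA count of 71, and its sisters had −0.56, 0.25 and 0.48. This tile as a whole was at −0.11 ± 0.04 (SE, adjusted p = 0.0233 by edgeR). At 121067332, the barcode with 1.02 ± 0.26 (SE) had a median DNA count of 66, its sisters had −0.41, 0.28 and 0.58, and its call was lost under 9 of 20 alternatives, among them TMM scaling and leaving out RNA library A_2 or B_1 or DNA library A_2, A_3 or B_1.

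A pair of further *Fendrr* tiles had high medians and no barcode called. The intron tile at 121066025 had barcodes from −0.14 to 0.93 with a median of 0.62, and its summed log2 ratio was 0.46 ± 0.04 (SE, adjusted p = 4.16e-08 by edgeR). The intron tile at 121079390 had a median of 0.60, and its summed log2 ratio of 0.59 ± 0.04 (SE) was the highest of the 37 *Fendrr* tiles and ranked 31 of 229.

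This last tile shared 41 bases with its neighbour at 121079341, whose summed log2 ratio was lower. Both are on the minus strand and in the same intron, and the shared bases are in capitals. They are chr8:121079341-121079430 and chr8:121079390-121079479.
Fendrr tile at 121079341: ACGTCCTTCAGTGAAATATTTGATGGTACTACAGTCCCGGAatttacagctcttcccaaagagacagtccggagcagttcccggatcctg
Fendrr tile at 121079390: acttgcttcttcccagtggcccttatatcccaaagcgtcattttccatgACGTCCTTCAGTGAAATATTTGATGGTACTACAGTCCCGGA

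At 121079390, the summed level was 20.2, 20.6, 21.1, 19.5 and 20.5 in the RNA libraries and 13.6, 13.2, 12.9, 13.96 and 14.3 in the DNA libraries. At 121079341, it was 24.8, 24.3, 26.5, 24.1 and 25.1 in RNA and 26.8, 25.1, 25.7, 23.6 and 24.6 in DNA. The groups were apart at the first tile and overlapped at the second, whose log2 ratio was −0.01 ± 0.04 (SE, adjusted p = 0.783 by edgeR). Single barcodes of these tiles spread from −0.72 to 0.76 and from −0.66 to 0.69, so the ranges of the barcodes overlapped almost fully. Another overlapping pair in *Fendrr*, at 121077920 and 121077969, also shared 41 bases and had log2 ratios of −0.36 ± 0.07 and 0.25 ± 0.08 (SE) from 2 barcodes each. In the pair at 121078851 and 121078900, with 1 and 4 barcodes, the log2 ratios were −0.16 ± 0.23 and 0.11 ± 0.05 (SE). Within these pairs the differences were not tested.

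The lower calls of *Fendrr* fell mostly on barcodes with a run of 4 T. Barcodes with this run were ataTTTTgcc and ataTTTTgcg of the lowest tile shown above, at 121068263, with log2 ratios of −1.80 ± 0.08 and −1.67 ± 0.17 (SE), and cctgaaTTTT of the intron tile at 121077185, with −1.12 ± 0.17 (SE). The first had 851, 552, 845, 595 and 783 RNA counts and 1692, 2757, 1692, 4212 and 3781 DNA counts. The fourth lower barcode, without such a run, belonged to the intron tile at 121061436 and had −1.03 ± 0.10 (SE). That call was lost without RNA library A_1 or B_3, and with libraries blocked by letter and number. Its tile had a log2 ratio of −0.18 ± 0.04 (SE), and the other 3 kept barcodes had −0.36, 0.07 and 0.15. Among *Fendrr* tiles with at least 3 kept barcodes, the next lowest medians came from tiles with no barcode called. They were the exon tile at 121073926, with a median of −0.24 and a tile ratio of −0.11 ± 0.04 (SE), and the intron tile at 121063494, with −0.21 and −0.17 ± 0.05 (SE). All 90 bases of the latter were masked as repeats.

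All 7 kept *Fendrr* barcodes with 4 T in a row had ratios below 0, from −1.80 to −0.25 with a median of −0.84. None of the kept *Foxf1* barcodes held the run. In the whole pool, 368 kept barcodes held it, and they had a median log2 ratio of −1.05, with 188 of them called lower (51.1%). The other 15917 barcodes had a median of 0.09, with 115 called lower (0.722%). TTTT had the lowest median of all 256 words of 4 letters. Median DNA counts of barcodes with and without it were 758.5 and 661. The run was noticed in these calls and then counted in the pool, and its part in the ratios was not tested. Without such barcodes, the tile at 121068263 moved from −0.64 ± 0.05 (SE) to 0.14 from its 2 other barcodes, which had 0.42 and −0.12, and 1 lower barcode remained in the 2 genes.

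Barcodes of the same tile often differed by more than their errors. Over the 29 *Fendrr* tiles with at least 3 kept barcodes, the SD within tiles was 0.56 and the SD of the tile medians 0.33, while the SE of a barcode's ratio had a median of 0.08 over the barcodes of both genes. Ratios of both signs occurred in 25 of these tiles, and only positive ones in 4. In the 7 *Foxf1* tiles with at least 3 kept barcodes, the SD within tiles was 0.32, the SD of tile medians 0.36, and 3 tiles had only positive ratios. Sister barcodes that differed in 1 letter had a median difference of 0.17 over 12 pairs, from 0.02 to 0.99, against 0.42 over the other 275 pairs of the 2 genes. In all annotated tiles those medians were 0.47 and 0.37. The pair farthest apart, gatgctcgcc and gatgctcgcg of the tile at 121067332, had ratios of 0.58 ± 0.16 and −0.41 ± 0.19 (SE).

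Position along *Fendrr* was then compared, from its outermost start at 121083110 to its end. Within 5 kb of the start the kept barcodes had a median log2 ratio of 0.20 (n = 23), from 5 to 10 kb 0.07 (n = 33), from 10 to 15 kb 0.23 (n = 15), from 15 to 20 kb 0.10 (n = 28) and beyond 20 kb 0.16 (n = 44). These stretches held 1, 1, 0, 1 and 2 active barcodes, and the tile medians showed little relation to distance (Pearson's r = −0.07, Spearman's rho = −0.11 over 29 tiles, a description). In *Foxf1*, the stretch from 1 to 2 kb after the start, which holds the intron tiles, had a median of 0.47 (n = 9) and the stretch beyond 2 kb one of 0.14 (n = 21). Exonic *Fendrr* barcodes had a median of 0.06 (n = 19) and intronic ones of 0.18 (n = 119).

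To compare sets of tiles over libraries, the median level of the kept barcodes of one set minus that of the other was taken in each library and compared between the 5 RNA and the 5 DNA libraries. The test was an exact two-sided permutation test, whose smallest p was 0.00794, adjusted over the 6 contrasts that could be computed. Such a p measures the spread between libraries of the same oligos, not between barcodes. Since a median over levels need not fall on the same barcodes in RNA and DNA, each contrast was also computed after subtracting from each barcode its own mean level, an alternative chosen after seeing the data.

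The contrast of *Foxf1* minus *Fendrr*, in RNA relative to DNA, was small and positive. Its direction held under every alternative, whereas its size and adjusted p depended on the setting. The difference of median levels was −0.29 ± 0.08 in RNA and −0.45 ± 0.12 in DNA (SD, n = 5 each), which gave 0.16 on the log2 scale (exact permutation test, p = 0.0317, adjusted p = 0.0476). It was 0.16 within letter A and 0.12 within letter B, where p cannot fall below 0.2. With each barcode centred it was 0.07 (exact permutation test, adjusted p = 0.0159). Without barcodes holding 4 T in a row, which were all in *Fendrr*, it was 0.07 (exact permutation test, adjusted p = 0.389), and leaving out RNA library A_1, A_2, B_1 or B_3 or DNA library A_1, A_3 or B_1 took the adjusted p of the uncentred value to between 0.0714 and 0.0952.

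By the contrast of median levels neither gene exceeded the scrambled tiles. Medians of barcode ratios were 0.15 in *Fendrr*, 0.32 in *Foxf1* and 0.23 in scrambled tiles, so for *Foxf1* they went the other way. *Fendrr* minus scrambled was 0.28 ± 0.09 in RNA and 0.58 ± 0.05 in DNA (SD, n = 5 each), a difference of −0.30 (exact permutation test, adjusted p = 0.0159), and it was −0.27 and −0.30 within the letters. With each barcode centred it was −0.08 (exact permutation test, adjusted p = 0.0159). *Foxf1* minus scrambled was −0.01 ± 0.08 in RNA and 0.14 ± 0.10 in DNA (SD, n = 5 each), a difference of −0.15 (exact permutation test, adjusted p = 0.0667), with −0.11 and −0.18 within the letters. With each barcode centred it was −0.0077 (exact permutation test, adjusted p = 0.810). Without DNA library A_3 it was −0.17 (exact permutation test, adjusted p = 0.0476). It turned direction under 3 alternatives, to between 0.11 and 0.27, and was 0.11 with the mean over barcodes in place of the median.

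Promoter tiles, which start within 1 kb upstream of an annotated start of their own gene, could hardly be compared with the gene body. For *Fendrr* the 5 kept promoter barcodes all came from 1 tile, chr8:121060500-121060589, which lies upstream of an inner start at 121060413 and within an exon of the gene. That tile had a log2 ratio of 0.11 ± 0.04 (SE, adjusted p = 0.0231 by edgeR), with barcodes from −0.32 to 0.29. The contrast with the 138 gene body barcodes was 0.60 ± 0.13 in RNA and 0.35 ± 0.10 in DNA (SD, n = 5 each), a difference of 0.25 (exact permutation test, adjusted p = 0.0159), with 0.35 and 0.14 within the letters. It turned to −0.15 with the mean over barcodes and to −0.08 with each barcode centred, so it gives no direction. For *Foxf1* the contrast set the 1 upstream barcode against 30 barcodes of the gene body and was 0.86 (exact permutation test, adjusted p = 0.0159), from −1.70 ± 0.18 in RNA and −2.55 ± 0.46 in DNA (SD, n = 5 each), with 1.03 and 0.55 within the letters. With each barcode centred it was 0.81 (exact permutation test, adjusted p = 0.0159), and with no count minimum it turned to −0.91, so it rests on the 1 barcode. *Fendrr* tiles within 10 kb of the start minus those beyond 20 kb differed by 0.07 (exact permutation test, adjusted p = 0.365), from −0.62 ± 0.15 in RNA and −0.68 ± 0.03 in DNA (SD, n = 5 each). It was 0.19 within letter A and −0.02 within letter B, and −0.02 with each barcode centred (exact permutation test, adjusted p = 0.505).

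Sequence features of the tiles were set beside their ratios as a description, without a test. The myogenic E-box CAGCTG occurred in 4 *Fendrr* tiles (10.5%) and no *Foxf1* tile, against 9.50% of all 179 annotated genomic tiles. These 4 tiles, at 121058524, 121061681, 121070839 and 121080994, had 19 kept barcodes with a median of 0.38, of which 16 were above 0, beside 115 of the 174 kept barcodes of both genes and 9316 of the 16285 of the pool. Any E-box occurred in 11 *Fendrr* and 2 *Foxf1* tiles, whose 53 kept barcodes had a median of 0.21. SP1 motifs lay in 5 tiles, all with at least 66% G and C, which kept 4 barcodes. The forkhead core, a letter pattern that forkhead factors such as FOXF1 can bind, occurred once, in the *Fendrr* tile at 121078900 with its median of 0.11. The full forkhead motif occurred in no tile. Of all annotated genomic tiles, 5.03% held the core. The MEF2 and TEAD motifs, each in 1 *Fendrr* tile, had medians of 0.04 and 0.06, with 3 of 5 kept barcodes above 0 in each. The GATA motif, in 3 tiles, had a median of 0.35, with 10 of 12 above 0. The TATA box, in 1 *Foxf1* tile, had 0.02, with 2 of 4 above 0. A match describes letters and not a bound site. The 12 tiles with 30 or more repeat-masked bases had a median of 0.06 over 47 kept barcodes and the other 36 a median of 0.23 over 127. In 3 *Fendrr* tiles the central 24 bases occurred at more than 1 place in the genome. Over the 36 tiles of both genes with at least 3 kept barcodes, G and C content and the median ratio had a Pearson's r of 0.33 and a Spearman's rho of 0.27, given as a description.

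Transcripts of both genes were at low levels in the tissues of the series that were profiled by RNA sequencing, which do not include C2C12 cells. These libraries came from kidney and from a tissue labelled GE + OB, both at E14.5, and from mouse embryonic stem cells (mESC), each wild type (WT) or lacking *Peril*, another lincRNA gene (KO, allele Periltm1.1Vlcg, C57BL/6J/129S6 background). In this allele a *LacZ* reporter stands in place of the gene body, and the mESC libraries of a genotype were wells of 1 clone. *Foxf1* had 0.38, 0.58 and 0.87 TPM (transcript abundance scaled to each library's total) in the 3 WT kidneys and 0.32, 0.35 and 0.64 in the 3 KO kidneys. *Fendrr* was listed at 0, 0.21 and 1.28 TPM in the WT kidneys and at 0, 0.03 and 0.05 in the KO kidneys. In the 4 GE + OB libraries *Foxf1* ranged from 0 to 0.23 TPM and *Fendrr* from 0 to 0.31, and in the 6 mESC libraries from 0 to 0.08 and from 0 to 0.04. *Foxf1* was thus higher in every kidney library than in any GE + OB or mESC library. WT and KO overlapped in kidney and in mESC for both genes. In GE + OB, *Foxf1* was 0 and 0.18 TPM in WT and 0.19 and 0.23 in KO. *Fendrr* was 0.13 and 0.31 in WT and 0 and 0.08 in KO. These GE + OB values rest on estimated counts of 0 to 7 for *Foxf1* and 0 to 4 for *Fendrr*. The titles of both WT libraries of GE + OB hold the letter m and those of both KO libraries the letter f. If these letters stand for male and female, genotype and sex cannot be told apart there. In kidney, both letters occur in each genotype. No test was made. The tissues were checked by their markers, which were *Six2*, *Pax2* and *Wt1* in kidney (34.2 to 120 TPM), *Dlx1*, *Dlx2* and *Gad1* in GE + OB (73.1 to 522 TPM) and *Pou5f1*, *Nanog* and *Zfp42* in mESC (107 to 1426 TPM).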

How the data were processed

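The authors deposited raw counts of reads per barcode for 5 RNA and 5 vector DNA libraries. They name no molecular identifiers, so a count is a read. These are the values as deposited, before any scaling. Library totals ran from 9846269 to 35098552 counts. For the RNA-seq libraries the authors deposited TPM values from RSEM, which were read as given.

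Barcodes were joined to tiles by the readable part of the study's oligo table, and tiles were matched to GRCm38 (mm10) and GENCODE vM21. Barcodes with 10 or more counts in 3 or more DNA libraries were kept. RNA was compared with DNA by edgeR 4.0.16 (quasi-likelihood test, R 4.3.3) on barcodes and on counts summed per tile, with each library scaled by the median count of its barcodes at the minimum. The script was tested on simulated data. Set contrasts used log2((count + 0.5) / factor) and exact permutation over libraries.

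Named tiles were all of *Foxf1*, and of *Fendrr* the promoter tiles, those with a called barcode, the 3 highest and 3 lowest medians among tiles with 3 or more kept barcodes, and all overlapping pairs. The members and lists were chosen with earlier results of these data known. The RNA libraries came from replicate transfections, and the DNA libraries are repeat preparations from the vector pool, so p-values measure the spread between these libraries, which may be technical. Alternatives were TMM and RLE scaling, DESeq2 1.42.0, other minimums, thresholds and summaries, blocks and leaving out each library.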

Additional observations from a re-analysis of the deposited data

Results flagged for a closer look

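In 62 groups of 5 libraries, 1 library stood apart from the others in 2. Chance flags about 1 in 20 such groups. The difference between the median levels of *Fendrr* promoter and gene body barcodes was 0.19 in DNA library A_2 and 0.37 to 0.42 in the other DNA libraries. The level of the *Foxf1* tile at 121087719 was 11.3 in RNA library B_2 and 12.01 to 12.32 in the other RNA libraries.

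A pair of *Fendrr* barcodes below the DNA minimum had more counts in every RNA library than in any DNA library. Barcode cgccaccgtg of the tile at 121073191 had 29, 17, 15, 22 and 30 RNA counts and 1, 2, 1, 1 and 5 DNA counts. Barcode gattacgtgg of the tile at 121076891 had 18, 19, 9, 13 and 11 RNA counts and 1, 0, 0, 1 and 6 DNA counts. No ratio was fitted for them.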

How the results depend on the processing

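Results are given by the setting that moved them, and the cause was not tested. With no limit on the size of the ratio, 71 barcodes and 22 tiles of the 2 genes were active and 24 and 5 were lower. TMM and RLE scaling left 0 active tiles and turned the *Fendrr* tile at 121077185 to −0.015 and −0.024. Named tiles that had not passed the test also went below 0 under both, namely *Fendrr* 121060500 and 121078900 and *Foxf1* 121085612, 121087278 and 121087474, with RLE values of −0.059, −0.058, −0.072, −0.061 and −0.089. Leaving out each library gave 1 to 2 active tiles. Without barcodes holding 4 T in a row, chosen after seeing the data, 1 lower barcode remained, the tile at 121068263 was 0.14, *Foxf1* minus *Fendrr* 0.071 and *Foxf1* minus scrambled −0.20.

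Contrasts that crossed an adjusted p of 0.05 or turned direction are given next. With a minimum of 50 counts, *Foxf1* minus *Fendrr* was 0.11, *Fendrr* minus scrambled −0.20 and the *Fendrr* promoter contrast 0.22. With medians over tiles these were 0.34, −0.20 and 0.17, *Foxf1* minus scrambled turned to 0.14, the *Foxf1* promoter contrast was 0.57 and *Fendrr* near minus far −0.055. With promoters on either side of a start, *Foxf1* minus *Fendrr* was 0.16 and the *Fendrr* promoter contrast 0.042. Without a minimum, *Foxf1* minus scrambled was 0.27, the promoter contrasts −0.44 (*Fendrr*) and −0.91 (*Foxf1*), and near minus far −0.14. With means over barcodes, *Foxf1* minus scrambled was 0.11, the *Fendrr* promoter contrast −0.15 and near minus far −0.18. With each barcode centred, these last contrasts were −0.078 and −0.024. Leaving out each library moved *Foxf1* minus *Fendrr* between 0.11 and 0.18 and *Foxf1* minus scrambled between −0.18 and −0.10.

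Within a letter no contrast could pass, since p cannot fall below 0.2. In letters A and B, *Foxf1* minus *Fendrr* was 0.16 and 0.12, *Fendrr* minus scrambled −0.27 and −0.30, the *Fendrr* promoter contrast 0.35 and 0.14 and the *Foxf1* one 1.03 and 0.55, with near minus far at −0.017 in B. Libraries with the same letter and number shared only that name, since their deviations correlated at −0.08, 0.07, −0.04 and −0.03. Under that replicate block, where p cannot fall below 0.125, the values were 0.11, −0.29, 0.27 and 0.89, and edgeR called 6 active and 3 lower barcodes and 1 active tile. Few DNA counts limit the rarest barcodes, and 5 barcodes a tile limit each tile.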

Other observations

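Several barcodes below the DNA minimum had counts that went apart between libraries of the same kind. Among them, accgaaactt of the *Fendrr* tile at 121068263 had 0, 0, 69, 30 and 115 RNA counts in A_1, A_2, B_1, B_2 and B_3, and 27, 8, 2, 1 and 0 DNA counts in A_1, A_2, A_3, B_1 and B_2. In the same order, gttgcagctt of the *Fendrr* tile at 121076254 had 1, 0, 114, 34 and 174 RNA counts and 57, 0, 20, 0 and 0 DNA counts. For aactaaggat of the *Foxf1* tile at 121087817 these were 1, 0, 68, 28 and 56 and 11, 0, 2, 0 and 0. In all of these, RNA counts lay nearly all in letter B and DNA counts were highest in A_1. They are examples chosen after their values were seen.

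The number of G and C letters in the 10-letter barcode itself moved with the ratio over the whole pool. Kept barcodes with 2 such letters had a median log2 ratio of 0.34 (n = 596), those with 5 one of 0.07 (n = 4251) and those with 8 one of −0.23 (n = 430). Its part in the ratios of *Fendrr* and *Foxf1* barcodes was not tested.

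The WT kidney library with 1.28 TPM of *Fendrr* also had 0.73 TPM of *Dlx1* and 0.74 of *Dlx2*, markers of GE + OB, where the other 5 kidneys had at most 0.31 and 0.07. The GE + OB libraries themselves had 0 to 0.31 TPM of *Fendrr* beside 477 to 522 TPM of *Dlx1*. The source of these reads in the kidney library was not tested.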
